A study of Mus musculus with 2 samples.

Results

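Cluster 13 was the neutrophil cluster with high scores for the G2/M phase of the cell cycle, and held 407 of the 17813 cells isolated from dystrophic muscle. Its members were chosen by the deposited cluster number alone, and the clusters had been made from the expression of these same cells. The methods do not state that cell cycle genes were left out of the clustering. The comparisons of its scores with those of other clusters are therefore descriptions. Of the 407 cells, 244 came from mdx muscle and 163 from cKO muscle.

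Mononucleated cells from limb and diaphragm muscle were profiled by droplet single cell RNA-seq in 2 libraries, 1 per genotype. The mdx mice lack dystrophin and served as the control, whereas the cKO mice carried the same mdx mutation together with floxed Spp1 (exons 2 and 3, the gene for osteopontin) and Lyz2Cre, which is active across myeloid cells, neutrophils and macrophages alike. The mice were males of 3 months, and muscle came from 3 mice per genotype. The mice cannot be told apart in the table, so no test between genotypes was run, and every interval is a 95% interval of counting error only. The genotype label of the control reads as wild type, while its title and library name give mdx. The table names the libraries only as Neg and Pos, read here as Cre-negative (mdx) and Cre-positive (cKO).

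Neutrophils are made in the bone marrow, where precursors divide, and the mature cells that reach blood and tissue have left the cell cycle. As they mature they shrink their nucleolus, make less RNA and lose most of their mitochondria. Ly6g (a surface protein of maturing mouse neutrophils), S100a8 and S100a9 (the abundant calprotectin subunits of their cytosol) and Csf3r (the receptor for granulocyte colony stimulating factor) mark the lineage. The table holds no expression per gene, so the label could not be checked against these markers, and no gene has a value here. The name neutrophil rests on cell numbers: clusters 7, 9 and 13 sum to 1311 mdx and 1164 cKO cells, and of the 1048575 possible sets of the 20 clusters they alone equal the study's neutrophil numbers in both genotypes. Only 2 sets came within 10 cells of both numbers, and both held cluster 13. The names macrophage and immune cells, used below for other clusters, could not be checked against gene expression either. The match of cell numbers was made for neutrophils only. The study's text gives fewer macrophages in each genotype than the set named macrophages here. Comparisons with macrophages are therefore comparisons with clusters given that name.

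The mdx library held 7156 cells and 43185486 unique molecular identifiers (UMIs, each standing for 1 captured transcript), and the cKO library 10657 cells and 59240298 UMIs. Cluster 13 contributed 2993364 UMIs in mdx (6.93% of the library) and 1260810 in cKO (2.13%). Only 20 barcode sequences occurred in both libraries, and 2 of those belonged to cKO cells of cluster 13. No doublets were called, and 38 mdx and 12 cKO cells of cluster 13 lay above the 95th percentile of UMIs in their library.

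Cluster 13 was a smaller part of the cKO library, both among all cells and among neutrophils. It made up 3.41% of the mdx library (244 of 7156, 95% exact binomial interval 3.0 to 3.86) and 1.53% of the cKO library (163 of 10657, 1.31 to 1.78), a ratio of the cKO to the mdx share of 0.449 (95% log interval 0.369 to 0.546). The share among all cells also moves with the other cell types, and the ratio was 0.657 outside macrophages (0.541 to 0.799), 0.436 among immune cells (0.359 to 0.530) and 0.370 outside cluster 6 (0.304 to 0.450). Cluster 6 lay almost wholly in mdx: without it the mdx library held 5879 of its 7156 cells, and the cKO library 10614 of 10657. Leaving it out thus lowers the mdx denominator almost alone. Among neutrophils it made up 18.6% in mdx (244 of 1311, 16.5 to 20.8) and 14% in cKO (163 of 1164, 12.1 to 16.1), a ratio of 0.752 (0.627 to 0.902). Cluster 7 was the larger part of cKO neutrophils, with 48.8% in mdx (46.1 to 51.6) and 58.3% in cKO (55.4 to 61.2). Cluster 9 held 32.6% in mdx (30.0 to 35.2) and 27.7% in cKO (25.1 to 30.3).

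The lower share among neutrophils was seen mainly against cluster 7. For every 100 cells of cluster 9 there were 57.1 cells of cluster 13 in mdx and 50.6 in cKO, and over clusters 9 and 13 alone the ratio of shares was 0.924 (0.787 to 1.08). For every 100 cells of cluster 7 there were 38.1 in mdx and 24.0 in cKO. Depth moves with this result, and its part was not tested beyond the values that follow: 33.6% of cKO but only 6.41% of mdx cells of cluster 7 held under 1000 UMIs, against 1 mdx and 0 cKO cells of cluster 13. Among cells with at least 1000 UMIs the ratio was 0.915 (0.765 to 1.09). With the minimum raised to 1794 UMIs in mdx and kept at 1000 in cKO, in proportion to the depth of cluster 7, it was 0.788 (0.659 to 0.942). Within 200 to 1800 genes, limits that the study's methods name but most cells of cluster 13 exceed, only 98 cells of cluster 13 remained (42 mdx and 56 cKO), and the direction turned, with ratios of 1.39 among neutrophils (0.941 to 2.06) and 1.15 among all cells (0.770 to 1.71). The upper limit of genes removed 82.8% of mdx and 65.6% of cKO cells of the cluster.

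**Figure D1:**
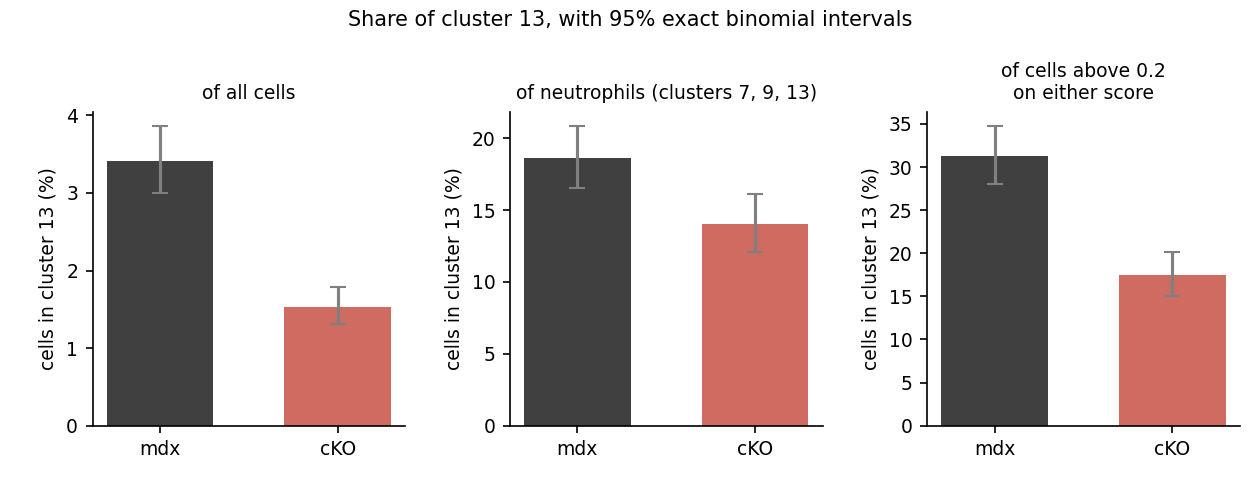
Percent of cells in cluster 13 (y axis, from 0) in mdx (black) and cKO (red), over all cells, over neutrophils and over cells of any type with an S or G2M score above 0.2, where error bars are 95% exact binomial intervals of counting error. The mdx and cKO values are 3.41% and 1.53% over all cells, 18.6% and 14% over neutrophils, and 31.3% and 17.5% over cells above 0.2.

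Cells of cluster 13, a cluster picked for high G2M scores, scored high for G2/M in both genotypes. The scores are Seurat values for the mean expression of S or G2/M genes above that of control genes, so they have no true zero and are compared as differences. The median G2M score was 0.629 in mdx (quartiles 0.363 and 0.772) and 0.701 in cKO (0.418 and 0.864), the highest of the 20 clusters in each library. Macrophage cluster 11 came second, with 0.456 and 0.459, and the next, cluster 14, had 0.0563 and 0.0499. The median S score of cluster 13 was 0.186 in mdx (quartiles 0.052 and 0.353) and 0.187 in cKO (0.068 and 0.388), second to cluster 11 with 0.276 and 0.293.

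The G2M medians of the 2 genotypes differed by 0.071, within wide and overlapping quartiles over cells, which do not measure the error of a median. The order of the genotypes depended on how depth was treated. Weighted to the UMIs of the mdx cells as deposited, the cKO median was 0.600, below that of mdx, though 1 of the 5 weighting bins held only 4 cKO cells. With cKO UMIs first multiplied by the depth ratio of cluster 7 (1.79) or of cluster 9 (1.57) it stayed at 0.701, and with the ratio over both clusters pooled (1.92), which also moves with their unequal shares, it was 0.722. Within bands of UMIs as deposited, the cKO and mdx medians were 0.648 and 0.550 up to 4000 UMIs, and 0.755 and 0.489 from 4000 to 8000. They were 0.725 and 0.658 from 8000 to 16000, and 0.576 and 0.644 above 16000, where only 4 cKO cells lay. The factors of clusters 7 and 9 lie near cluster 13's own mdx to cKO depth ratio of 1.66. Their weighting bins held 26 to 49 and 26 to 39 cKO cells. The weights were thus nearly even, and a median near the unweighted 0.701 follows largely by construction. All of these settings reuse the same cells, so a count of them carries no weight. With 1 library per genotype, the difference was not tested.

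Neutrophils of clusters 7 and 9 scored near 0. Their median G2M scores lay between 0.009 and 0.020, and their median S scores between -0.044 and -0.041, over both genotypes. A score above 0.2 on either scale was found in 4 of 1067 mdx cells of clusters 7 and 9 (0.375%, 0.102 to 0.957) and in 4 of 1001 cKO cells (0.400%, 0.109 to 1.02). In cluster 13 such a score was found in 98.0% of cells in mdx (239 of 244, 95.3 to 99.3) and 96.9% in cKO (158 of 163, 93.0 to 99.0). Cluster 13 thus contained 239 of the 243 mdx neutrophils and 158 of the 162 cKO neutrophils above 0.2. Counted by score instead of by cluster, 18.5% of mdx neutrophils (16.5 to 20.7) and 13.9% of cKO neutrophils (12 to 16) were above 0.2.

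The deposited phase calls did not separate the clusters in this way. G2M was called for 64.5% of mdx and 59.1% of cKO cells of cluster 7, and for 58.8% and 56.8% of cluster 9, close to what macrophage cluster 11 showed (57.3% and 53.1%). Of the 413 mdx cells of cluster 7 called G2M, all had a G2M score of at most 0.2, as did 400 of the 401 in cKO. In every one of the 17813 cells the call followed the higher score, or was G1 where both were below 0, so a call of G2M can rest on any score above 0. In cluster 13, G2M was called for 79.1% of mdx cells (193 of 244, 73.5 to 84.0) and 79.1% of cKO cells (129 of 163, 72.1 to 85.1), and all but 2 cells of each had a G2M score above 0.2. S was called for 20.5% (15.6 to 26.1) and 20.2% (14.4 to 27.2), and G1 for 1 cell in each genotype.

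Across all cell types, cluster 13 accounted for a large part of the cells with a high score. Of the 764 mdx cells above 0.2 on either scale, 31.3% lay in cluster 13 (28.0 to 34.7) and 35.1% in macrophage cluster 11 (31.7 to 38.6). Of the 902 such cKO cells, 17.5% lay in cluster 13 (15.1 to 20.2) and 43.7% in cluster 11 (40.4 to 47.0). The shares of the 2 clusters are parts of the same cells, so their intervals are not independent and give no test between the clusters.

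**Figure D2:**
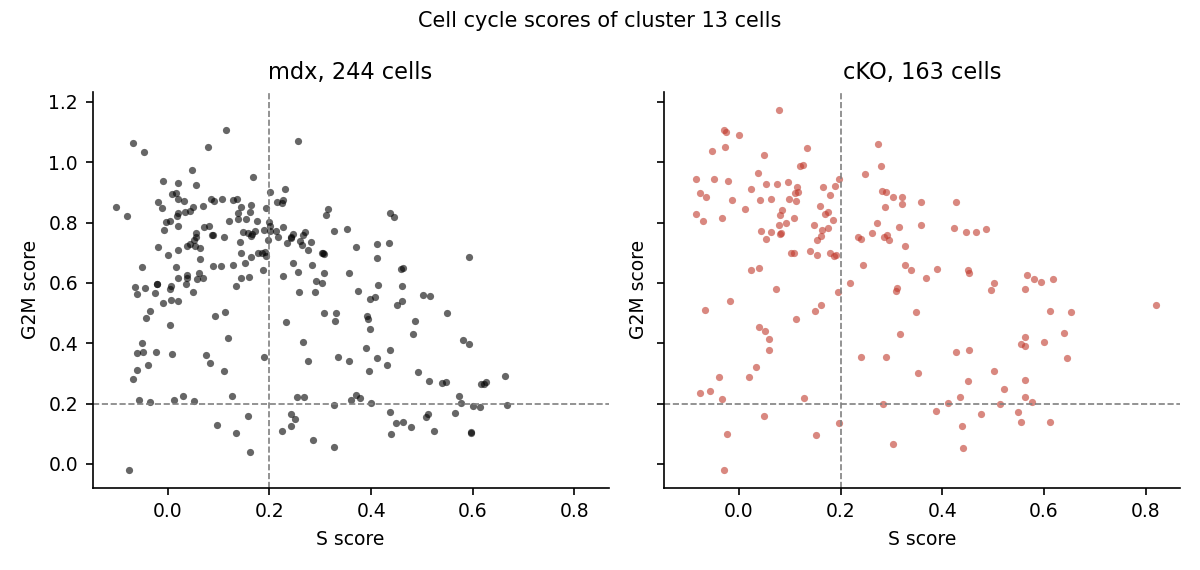
G2M score (y axis) against S score (x axis) for each cell of cluster 13 in mdx (left, 244 cells) and cKO (right, 163 cells), where dashed lines mark a score of 0.2. Cells with a high S score reach down to low G2M scores and cells with a low S score lie mostly high on the G2M scale, and 5 cells in each genotype fall below both lines.

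Most cells of cluster 13 had a G2M score above 0.2 with or without a high S score. In mdx 125 cells (51.2%, 44.8 to 57.7) were above 0.2 on the G2M scale only, 93 cells (38.1%, 32 to 44.5) on both scales, 21 cells (8.61%, 5.41 to 12.9) on the S scale only and 5 cells (2.05%, 0.669 to 4.72) on neither. In cKO the numbers were 82 cells (50.3%, 42.4 to 58.2), 66 cells (40.5%, 32.9 to 48.4), 10 cells (6.13%, 2.98 to 11) and 5 cells (3.07%, 1.00 to 7.01). The ratio of the cKO to the mdx share was 0.982 for G2M only (0.808 to 1.19), 1.06 for both (0.831 to 1.36) and 0.713 for S only (0.345 to 1.47). Each interval includes 1, and the widest, for S only, extends from a ratio of 0.345 to 1.47.

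Macrophage cluster 11, the other cluster with high scores, was spread more evenly. There the S scale alone was above 0.2 in 23.8% of the mdx cells (19.0 to 29.3) and in 27.4% of the cKO cells (23.1 to 32), against 8.61% and 6.13% in cluster 13. On the G2M scale only were 33.1% (27.6 to 38.9) and 29.9% (25.5 to 34.6), against 51.2% and 50.3% in cluster 13. The share of cells above 0.2 on both scales was 38.4% and 40.0% in cluster 11, against 38.1% and 40.5% in cluster 13. Cluster 11 had more UMIs per cell, and weighting its cells to the UMIs of cluster 13 within each library gave 24.7% S only, 32.9% both and 36.5% G2M only in mdx, and 27.3%, 34.3% and 34.2% in cKO. For S only and for G2M only, the contrast between the clusters was in the same direction in both libraries and at both depths.

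**Figure D3:**
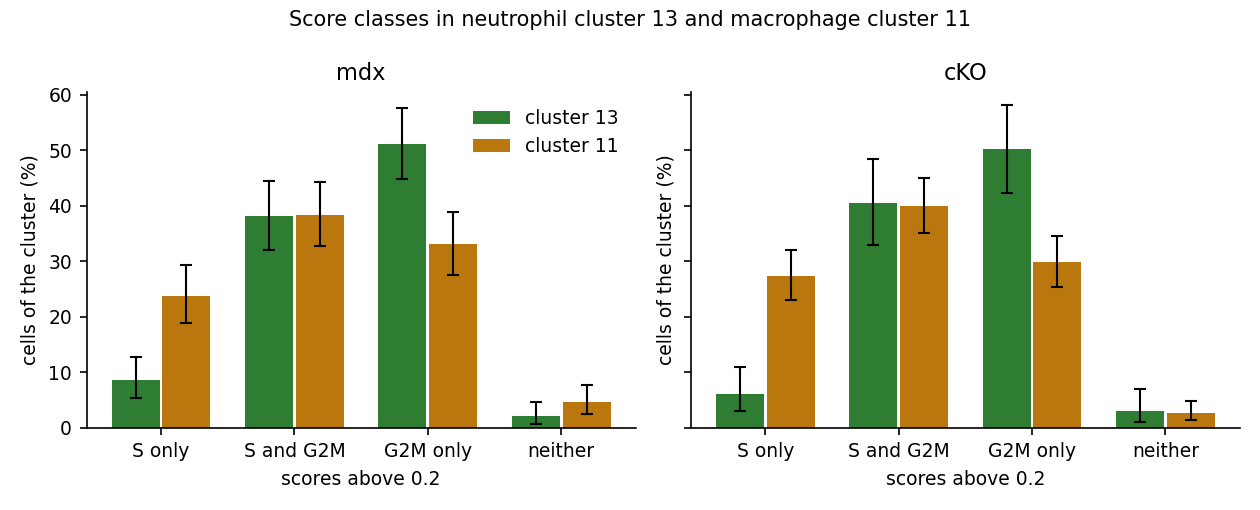
Percent of the cells of a cluster (y axis, from 0) with a score above 0.2 on the S scale only, on both scales, on the G2M scale only or on neither (x axis), for neutrophil cluster 13 (green) and macrophage cluster 11 (orange) in mdx (left) and cKO (right), where error bars are 95% exact binomial intervals. Cluster 13 has fewer cells in the S only class (8.61% and 6.13%, against 23.8% and 27.4%) and more in the G2M only class (51.2% and 50.3%, against 33.1% and 29.9%).

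Within cluster 13 the scores ran against each other. Over cells of 1 library, Spearman's rho between the S and the G2M score was -0.350 in mdx (244 cells) and -0.396 in cKO (163 cells), and in cluster 11 it was -0.450 (281 cells) and -0.436 (405 cells). Clusters 14 and 15, which are not of the neutrophil set, had the opposite sign, with 0.713 (187 cells) and 0.683 (163 cells) in cluster 14 and 0.547 (188 cells) and 0.696 (94 cells) in cluster 15. The sign in the remaining clusters was not examined. Few cells of clusters 13 and 11 were at or below 0.2 on both scales, which by itself favours a negative rho. In clusters 14 and 15 both scores rose with UMIs, with rho between 0.389 and 0.680, against -0.031 to 0.198 in cluster 13 and -0.022 to 0.228 in cluster 11. The contrast in sign cannot be read apart from these limits, and its cause was not tested. Cells of a library share its depth and normalization, and these values are descriptions.

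Cells of cluster 13 were the RNA-rich neutrophils. The median was 11969 UMIs per cell in mdx (quartiles 8938 and 15316) and 7209 in cKO (5148 and 9853). Cluster 9 had medians of 5199 and 3311 and cluster 7 had 2150 and 1198, so that cluster 13 held 2.30 and 2.18 times the UMIs of cluster 9 and 5.57 and 6.02 times those of cluster 7. The order of the neutrophil clusters was the same in both genotypes, and the quartile ranges of clusters 13 and 9 did not overlap in either. Macrophage cluster 11 held more, with medians of 15601 and 10102.

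The number of genes detected followed the UMIs. The median for cluster 13 was 2544 genes in mdx (quartiles 2075 and 2885) and 2017 in cKO (1632 and 2436), against 1303 and 1044 in cluster 9 and 771 and 575 in cluster 7. Cluster 11 had 3619 and 3083. Weighted to the UMIs of cluster 13, cluster 11 still had 3225 genes in mdx and 2588 in cKO. At like depth, cluster 13 thus spread its UMIs over fewer genes than the macrophage cluster with high scores. Among cells with 8000 to 16000 UMIs the medians were 2521 genes in cluster 13 and 3302 in cluster 11 in mdx, and 2508 and 3211 in cKO.

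All 4 clusters held more UMIs per cell in mdx. The ratio of the mdx to the cKO median was 1.66 in cluster 13, 1.79 in cluster 7, 1.57 in cluster 9 and 1.54 in cluster 11. The ratio for cluster 13 lay between those of the other neutrophil clusters. Over all cells of the libraries the order was the other way, with medians of 4155 UMIs in mdx and 4696 in cKO. For genes the ratio was 1.26 in cluster 13, 1.34 in cluster 7, 1.25 in cluster 9 and 1.17 in cluster 11.

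**Figure D4:**
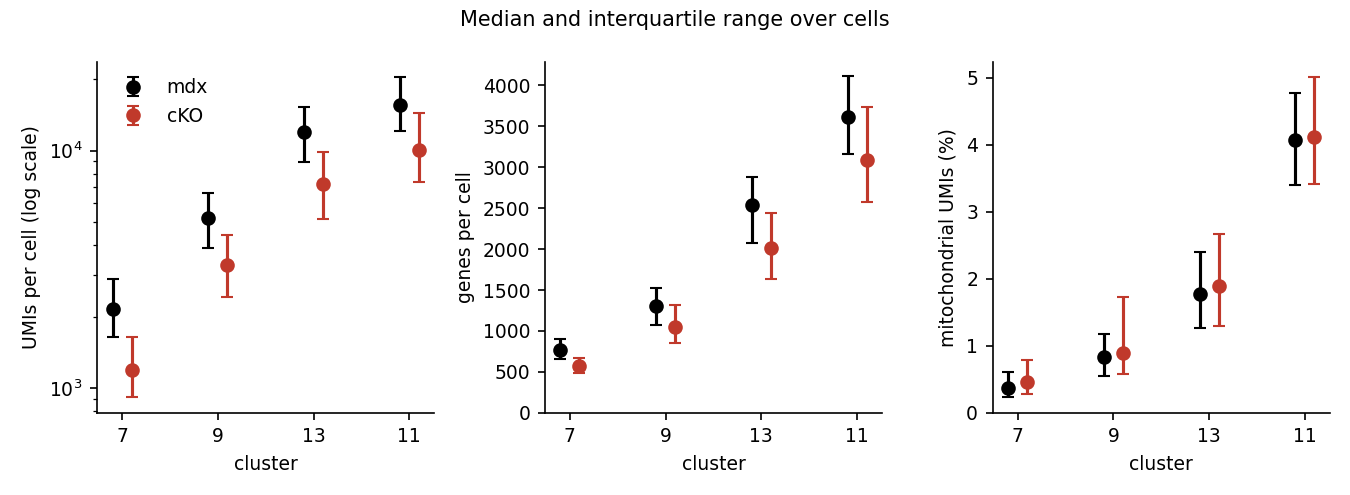
Median (points) and interquartile range over cells (bars) of UMIs per cell (left, log scale), genes per cell (middle) and the percent of mitochondrial UMIs (right) in neutrophil clusters 7, 9 and 13 and macrophage cluster 11 (x axis), for the mdx library in black and the cKO library in red. Each measure is lowest in cluster 7, higher in 9, higher again in 13 and highest in 11, in both genotypes.

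The mitochondrial share of UMIs placed cluster 13 between neutrophil clusters 7 and 9 and macrophage cluster 11. Its median was 1.77% in mdx (quartiles 1.27 and 2.40) and 1.89% in cKO (1.30 and 2.68). Cluster 9 had 0.832% and 0.895%, and cluster 7 had 0.377% and 0.457%. Cluster 11 had 4.08% and 4.12%, which is 2.30 and 2.18 times the value of cluster 13. Only 2 clusters in mdx and 3 in cKO had a lower median than cluster 13. The cKO median was the higher by 0.120 percentage points in cluster 13, 0.081 in cluster 7, 0.063 in cluster 9 and 0.040 in cluster 11. The difference in cluster 13 is small beside its quartiles over cells, which do not measure the error of a median. These differences were not tested.

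The contrast in mitochondrial share with cluster 11 was nearly as large at matched depth. After cluster 11 was weighted to the UMIs of cluster 13, its median was 3.95% in the mdx and 3.99% in the cKO library. In each of the 4 bands of UMIs the median of cluster 13 lay below that of cluster 11 of the same library. It was between 1.53% and 2.20% in mdx and between 1.63% and 2.46% in cKO, against 2.70% to 4.24% and 3.58% to 4.33% in cluster 11.

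Within cluster 13 the mitochondrial share was lowest in cells with a high G2M score alone. Cells above 0.2 on the G2M scale only showed a median of 1.57% in mdx (125 cells) and 1.68% in cKO (82 cells). Cells above 0.2 on both scales had 2.04% (93 cells) and 2.16% (66 cells), and cells on the S scale only had 2.07% (21 cells) and 1.99% (10 cells). Spearman's rho between the mitochondrial share and the S score was weak, 0.347 in mdx and 0.327 in cKO. UMIs differed little between these classes, with medians of 11735, 12407 and 11795 in mdx and 7170, 7361 and 7277 in cKO, in the order G2M only, both and S only. The few cells on neither scale had medians of 5142 UMIs in mdx and 6829 in cKO, over 5 cells each.

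**Figure D5:**
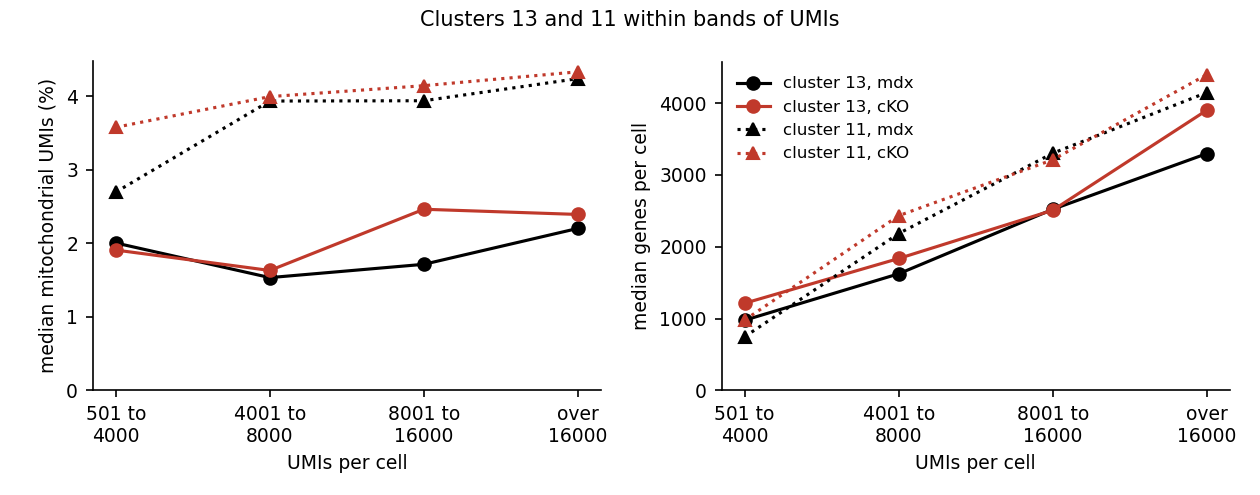
Median percent of mitochondrial UMIs (left) and median genes per cell (right), both from 0, within 4 bands of UMIs per cell (x axis) for cluster 13 (circles, solid lines) and cluster 11 (triangles, dotted lines) in mdx (black) and cKO (red). In each library cluster 13 lies below cluster 11 in mitochondrial share in every band, and below it in genes in every band but the lowest. The bands of cluster 13 hold between 4 and 141 cells.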

How the data were processed

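Mononucleated cells of mdx and cKO muscle were profiled with a 10x Genomics 3' kit, 1 library per genotype. Cell Ranger 7 and the mm10 build are given in the processing notes of the submitters, and Seurat in the study's methods. The table deposited by the authors has 1 row per cell, with UMI and gene counts, the mitochondrial share of UMIs, S and G2M scores, a phase call and cluster numbers at resolution 0.5. The mitochondrial fraction was computed by the authors before deposit and multiplied here by 100. The table holds no expression per gene, so the rule for named genes gave no gene a value. Its 2 cluster columns were identical, and its shallowest cell had 501 UMIs. The study's limits on genes do not describe the deposited cells.

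Shares were given with exact (Clopper-Pearson) 95% intervals and their ratios with 95% log intervals, both of counting error only. Scores, counts and percents were given as medians with quartiles over cells. The threshold of 0.2 on either score, the clusters compared and the alternatives were chosen with earlier results of these data known. For matched depth, cells were weighted over 5 UMI quantile bins, since cells could not be thinned. Alternatives changed the score threshold, the minimum of UMIs or genes, the cells of highest depth, the denominator and the mean against the median. The scaled minimum, the weighting of cKO scores and the scaled weighting of cKO phase calls were added after seeing the data. No test between genotypes was made. The intervals were tested on simulated data. Python 3.11.15, pandas 2.3.3, NumPy 2.4.6, SciPy 1.17.1 and Matplotlib 3.10.9 were used.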

Additional observations from a re-analysis of the deposited data

How the results depend on the processing

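Of 106 alternatives over 18 results, 80 stayed within the error of the reported value, 24 moved beyond it and 2 turned the direction. The minimum of 500 genes removed no cell of cluster 13, and that of 1000 UMIs removed only 1 mdx cell. For results within the cluster, these alternatives thus returned the reported value or nearly so by construction. They are counted in the total but do not test stability. Under the study's limits on genes the ratio of cKO to mdx shares was 1.15 among all cells and 1.39 among neutrophils, both on 98 cells. The same limits gave 92.9% of mdx cells above 0.2, phase S in 10.7% and G2M in 87.5% of cKO cells, median S scores of 0.0484 (mdx) and 0.149 (cKO), a median G2M score of 0.431 (mdx), 5301 and 4297.5 UMIs, 1506 and 1445.5 genes, and 1.48% and 1.70% mitochondrial UMIs. The cKO median G2M score under these limits was 0.679, within the error of its reported value. The all-cell ratio was 0.657 outside macrophages, and the neutrophil ratio was 0.915 from 1000 UMIs and 0.924 over clusters 9 and 13. With a threshold of 0.1, 99.6% of mdx cells were above it, and with 0.3, 92.2% of mdx and 92.6% of cKO cells. Means instead of medians gave a G2M score of 0.576 in mdx and 1.99% (mdx) and 2.21% (cKO) mitochondrial UMIs. Without the 5% of cells with the most UMIs, mdx medians were 11116.5 UMIs and 2397 genes. Weighting to mdx UMIs gave a cKO G2M median of 0.600. Beyond the gene limits, which leave out cells by depth by their construction, the cause of these shifts was not tested. With 1 library per genotype, mouse, library and genotype cannot be told apart. No paired analysis was possible because each genotype has 1 library and the result comes from no test. There was no replicate to leave out.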
